A study of Homo sapiens with 12 samples.

Results

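The 55 G2-M and mitosis genes described here encode the cyclins, kinases, checkpoint proteins, kinetochore proteins, motors and chromosome proteins that carry a cell from G2 through mitosis, together with 2 transcription factors that drive them. They were listed by gene symbol, and each was read from its own brightest feature on the array. A feature of its own was found for 54 of the 55, out of 22411 genes tested, and BUB1B was not analysed here because its feature also carries the symbol PAK6. The cells were A549, a human lung adenocarcinoma line, and their RNA was hybridised to Human Transcriptome Array 2.0 chips, with 3 arrays for each of 4 groups. Control and TUSC3 KO cells, grown in the same serum-containing medium, received either DMSO, the solvent, or tunicamycin (TM) at 3 ug/ml for 16 h. TM blocks N-linked glycosylation in the endoplasmic reticulum (ER) and causes ER stress, and TUSC3 encodes a subunit of the oligosaccharyltransferase that attaches N-glycans. Per the study's methods, the KO cells were made with CRISPR/Cas9 plasmids and grown out from single cells, so genotype and clone cannot be told apart. Nothing in the labels says that the 3 arrays of a group came from separate cultures, and the p-values therefore measure the spread between arrays, which may be technical.

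Most mitotic genes are transcribed in a burst in G2 and M and are silent or low in G1, so that their RNA in a culture follows both the share of cells in those phases and the transcripts per cell. In G1 and in resting cells the DREAM complex, built on the MuvB core, represses them. Later in the cycle the same core joins MYBL2 (B-MYB) and then FOXM1 and turns them on, acting at promoter elements called the cell cycle genes homology region (CHR) and, through the factor NF-Y, at CCAAT boxes. In RNA from a whole culture, fewer cells in mitosis and less RNA per mitotic cell cannot be told apart.

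The promoters of these genes were read from RefSeq (GRCh38.p14) in windows from 250 bases before to 50 bases after each annotated start. The 54 genes gave 52 windows of 46 genes, and no window was used for AURKA, BIRC5, CENPM, FOXM1, PBK, TPX2, TTK and UBE2C. Their absence from the count does not show that RefSeq lacks a window for them. The CHR letters TTTGAA occurred on either strand in 35 of the 52 windows (67.3%). The shares were 15.2% of all 35116 windows in the RefSeq table and 12.8% of the 21328 windows of genes tested. The CCAAT letters occurred on either strand in 38 of the 52 (73.1%), against 34.6% of all windows and 34.7% of those of genes tested. Both occurred in 27 (51.9%), against 5.9% and 5.1%. A match is a description of these letters and not of a bound site. The 120 bases before the start are shown for 6 of the genes to which the results below return, 4 of them with a TM response that differed between the genotypes (PLK1, CDC20, CCNB1 and HJURP) and CCNB2 and ANLN, whose interaction did not pass the test. Capitals mark TTTGAA and CCAAT on either strand, and the reverse complements read TTCAAA and ATTGG.
CCNB2 (chr15:59105026-59105145, plus strand): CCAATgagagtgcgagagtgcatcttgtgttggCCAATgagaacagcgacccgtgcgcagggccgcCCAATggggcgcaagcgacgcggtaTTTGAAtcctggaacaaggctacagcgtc
PLK1 (chr16:23678769-23678888, plus strand): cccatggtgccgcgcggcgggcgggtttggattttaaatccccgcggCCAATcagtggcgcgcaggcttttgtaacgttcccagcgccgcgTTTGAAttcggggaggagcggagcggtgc
CDC20 (chr1:43358861-43358980, plus strand): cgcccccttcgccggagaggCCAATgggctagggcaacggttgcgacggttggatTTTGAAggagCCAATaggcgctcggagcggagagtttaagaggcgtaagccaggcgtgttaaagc
CCNB1 (chr5:69167030-69167149, plus strand): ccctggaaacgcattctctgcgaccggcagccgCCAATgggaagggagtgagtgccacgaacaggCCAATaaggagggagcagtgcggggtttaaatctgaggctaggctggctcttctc
HJURP (chr2:233854536-233854655, minus strand): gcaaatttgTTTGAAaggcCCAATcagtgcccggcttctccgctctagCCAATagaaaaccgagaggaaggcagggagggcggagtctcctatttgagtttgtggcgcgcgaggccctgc
ANLN (chr7:36389742-36389861, plus strand): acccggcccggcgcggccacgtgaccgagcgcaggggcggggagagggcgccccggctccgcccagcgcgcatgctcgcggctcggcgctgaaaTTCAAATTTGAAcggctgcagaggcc

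CCNB2, PLK1, CDC20 and HJURP carry both motifs in these 120 bases. CCNB1 carries 2 CCAAT boxes and no TTTGAA, and ANLN carries TTTGAA on both strands side by side and no CCAAT box. Among members whose TM response differed between the genotypes, 6 of 14 windows (42.9%) held TTTGAA. Among the other members 29 of 38 (76.3%) did, a difference that was not tested. The 14 windows came from 13 of 17 genes, as none was used for AURKA, FOXM1, TPX2 and UBE2C. The 38 came from 33 of 37 genes. Only the exact letters were counted. The CCAAT box occurred in 78.6% and 71.1% of these windows.

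The labels were checked before the mitotic genes were compared. TUSC3 had log2 RMA values of 7.16, 7.03 and 7.10 in control cells under DMSO and 6.90, 6.93 and 7.0 under TM. The KO cells stood at 5.51, 5.5 and 5.57 under DMSO and 5.5, 5.53 and 5.78 under TM, with every KO array below every control array. Of 5 ER stress genes checked, 4 were higher under TM in control cells, with XBP1 at -0.04, and 5 in TUSC3 KO cells, with log2 differences of 1.70 in control and 1.52 in TUSC3 KO cells for HSPA5, the ER chaperone BiP, and of 2.61 and 2.54 for DDIT3, the stress factor CHOP. All 8 epithelial markers, among them keratins and EPCAM, lay above the median feature of the arrays (4.78) in every group, at group means of 7.33 to 12.5. Below that median in every group were 2 of 5 fibroblast, 4 of 5 blood cell and 3 of 5 endothelial markers. Arrays of 1 group correlated at 0.996 to 0.999 across genes, which are not independent replicates.

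All 54 mitotic genes were compared, and the lowest group mean of any of them was 5.03. That mean lay above the median feature (4.78) and below the median gene of every array, and detection was not tested. The SD of the 54 genes within a group of 3 arrays had a median of 0.056 on the log2 scale, against 0.054 for all genes tested, and reached 0.225. The mean log2 RMA value over the 54 genes was 8.09 ± 0.05 (SD, n = 3 arrays) in control cells under DMSO, 7.39 ± 0.01 in control cells under TM, 8.04 ± 0.03 in TUSC3 KO cells under DMSO and 7.16 ± 0.07 in TUSC3 KO cells under TM. The genes also shared a pattern among arrays of 1 group. Control DMSO replicate 2 was the lowest of its group for 37 of the 54, TUSC3 KO DMSO replicate 3 the highest for 40 and TUSC3 KO TM replicate 3 the highest for 40. These arrays held the same places for 32.2%, 29.7% and 31.0% of all genes. TUSC3 KO TM replicate 3 was also the lowest array of its group for 47.3% of all genes, and its median gene stood at 5.76, against 5.81 to 5.85 on the other arrays. Counts without these arrays are given beside the results they touch.

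**Figure D1:**
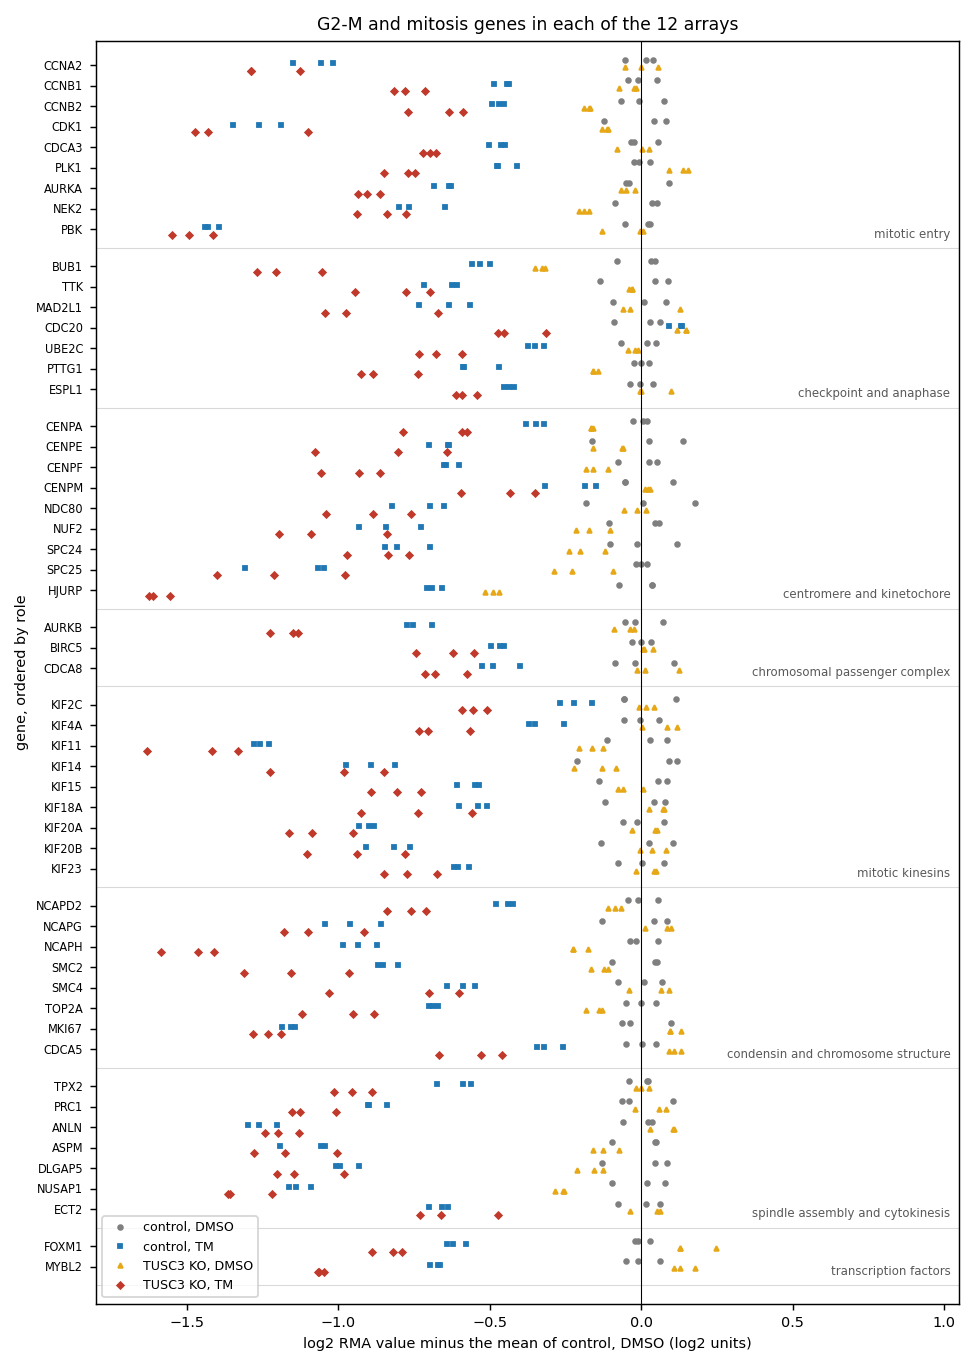
Each point is 1 array's log2 RMA value of a mitotic gene minus the mean of the 3 control DMSO arrays (x axis, log2 units), for the 54 genes ordered by role (y axis). TM arrays of both genotypes lie to the left of the DMSO arrays, with CDC20 in control cells as the exception, and the TUSC3 KO TM arrays lie furthest left for most genes.

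Does TM change the RNA of mitotic genes, and does it do so in both genotypes? In control cells 53 of the 54 genes fell under TM and none rose, with a median log2 difference of -0.65 (1.57-fold lower), where 13.6% of all genes tested were called lower and 11.2% higher. In TUSC3 KO cells all 54 fell, with a median of -0.85 (1.80-fold lower), where 14.9% of all genes were called lower and 12.5% higher. The medians of all genes tested were 0.03 and -0.01. Genes were called at an adjusted p under 0.05 from limma, with Benjamini-Hochberg adjustment over all 22411 genes. The arrays of the 2 treatments did not overlap for any of the fallen genes, for 53 of 54 in control and 54 of 54 in TUSC3 KO cells, where 18.3% and 19.5% of all genes separated in that direction. CDC20 separated upward in control cells, as 20.3% of all genes did. For a single gene, an exact permutation test of 3 arrays against 3 cannot go below p = 0.1. Without control DMSO replicate 2 the count in control cells was 52, and without TUSC3 KO TM replicate 3 it stayed 54 in TUSC3 KO cells.

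Among the 9 genes of mitotic entry, all fell in both genotypes, with median log2 differences of -0.65 in control and -0.85 in TUSC3 KO cells. PBK, a mitotic kinase that CDK1 activates, fell furthest of all 54 genes. Its log2 RMA values were 8.85, 8.77 and 8.85 in control cells under DMSO and 7.39, 7.43 and 7.39 under TM, and 8.83, 8.69 and 8.82 in TUSC3 KO cells under DMSO and 7.33, 7.27 and 7.41 under TM. The genotypes overlapped under both treatments, and the TM arrays lay far below the DMSO arrays, 2.68-fold lower in control (log2 difference -1.42, SE 0.04, adjusted p = 1.10e-09 from limma) and 2.72-fold lower in TUSC3 KO cells (log2 difference -1.44). CDK1, the kinase that drives entry into mitosis, went from 7.83, 7.66 and 7.87 under DMSO to 6.44, 6.53 and 6.60 under TM in control cells. The KO arrays of CDK1 went from 7.67, 7.66 and 7.68 to 6.36, 6.32 and 6.69. These falls were 2.40-fold (log2 difference -1.26, SE 0.09, adjusted p = 6.26e-07 from limma) and 2.32-fold (log2 difference -1.22), and no KO TM array reached a DMSO array. The cyclins that pair with CDK1 fell by different amounts. CCNA2, cyclin A2 of S and G2, fell by 1.07 in control and 1.23 in TUSC3 KO cells on the log2 scale, while the B-type cyclins CCNB1 and CCNB2 had log2 differences of -0.46 and -0.47 in control and -0.73 and -0.49 in TUSC3 KO cells. AURKA, the centrosomal Aurora kinase, had -0.65 and -0.85. NEK2, a kinase of centrosome separation, had -0.74 and -0.66. CDCA3, a trigger of WEE1 degradation, had -0.47 and -0.68.

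The checkpoint and anaphase genes fell least among the larger role groups, with median log2 differences of -0.53 in control and -0.69 in TUSC3 KO cells over 7 genes. TTK, the MPS1 kinase that starts checkpoint signalling, showed the largest fall of the group in control cells, from 7.02, 6.84 and 7.06 under DMSO to 6.25, 6.35 and 6.37 under TM (log2 difference -0.65, SE 0.07, adjusted p = 1.92e-05 from limma). MAD2L1, the checkpoint protein MAD2, showed the largest in TUSC3 KO cells, from 7.13, 7.10 and 7.29 to 6.12, 6.19 and 6.49 (log2 difference -0.91, SE 0.09, adjusted p = 1.25e-05 from limma). In each case every TM array lay below every DMSO array. PTTG1, securin, had log2 differences of -0.55 in control and -0.69 in TUSC3 KO cells. ESPL1, the separase that securin holds, had -0.44 and -0.61. UBE2C, the ubiquitin-conjugating enzyme of the anaphase-promoting complex (APC/C), had -0.35 and -0.64.

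CDC20, the APC/C activator that the checkpoint inhibits, was the exception in control cells. Its values there were 8.25, 8.37 and 8.41 under DMSO and 8.48, 8.48 and 8.44 under TM, so that every TM array stood above every DMSO array, while the difference did not pass the test (log2 difference 0.12, SE 0.05, adjusted p = 0.0885 from limma). It passed the test as higher without TUSC3 KO TM replicate 2. In TUSC3 KO cells CDC20 fell with the others, from 8.49, 8.46 and 8.49 under DMSO to 7.87, 8.03 and 7.89 under TM, with no overlap (1.46-fold lower, log2 difference -0.55, SE 0.05, adjusted p = 3.06e-06 from limma).

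The 9 centromere and kinetochore genes all fell, with median log2 differences of -0.69 in control and -0.80 in TUSC3 KO cells. SPC25, a subunit of the NDC80 complex that binds spindle microtubules, fell furthest in control cells, from 6.25, 6.23 and 6.21 under DMSO to 5.16, 5.18 and 4.92 under TM (2.20-fold lower, log2 difference -1.14, SE 0.10, adjusted p = 4.29e-06 from limma). Its KO arrays went from 5.94, 6.0 and 6.13 to 5.02, 4.83 and 5.25 (log2 difference -0.99). The genotypes overlapped under TM and not under DMSO. The other subunits of that complex had log2 differences of -0.72 and -0.88 (NDC80), -0.83 and -0.88 (NUF2) and -0.78 and -0.67 (SPC24) in control and TUSC3 KO cells. CENPA, the histone H3 variant that marks the centromere, moved less, by -0.35 and -0.49. The kinesin CENPE had -0.66 and -0.75, and the kinetochore protein CENPF had -0.63 and -0.80. CENPM, of the inner kinetochore, had the smallest fall of the group in both genotypes, at -0.22 (adjusted p = 0.0328 from limma) and -0.48. The call in control cells was lost without control DMSO replicate 2, control TM replicate 2 or control TM replicate 3, at 52 of 54 genes called in each case.

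Of the chromosomal passenger complex, which corrects attachments of chromosomes to the spindle, AURKB, BIRC5 and CDCA8 all fell in both genotypes. AURKB, its Aurora kinase, stood at 8.05, 8.18 and 8.09 under DMSO and 7.36, 7.42 and 7.33 under TM in control cells, a 1.67-fold fall (log2 difference -0.74, SE 0.04, adjusted p = 8.77e-08 from limma). With TUSC3 knocked out it stood at 8.02, 8.07 and 8.09 under DMSO and 6.88, 6.98 and 6.96 under TM, a 2.17-fold fall (log2 difference -1.12, SE 0.04, adjusted p = 3.20e-09 from limma). The DMSO arrays of the genotypes overlapped and their TM arrays did not. BIRC5, survivin, had log2 differences of -0.47 and -0.66. CDCA8, borealin, had -0.47 and -0.70.

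The mitotic kinesins, the motors of the spindle and the midzone, fell in 9 of 9 cases in each genotype, and their log2 differences spanned -0.22 to -1.26 in control cells. KIF11, the motor that pushes spindle poles apart, was at the far end. Its values went from 9.05, 8.85 and 9.0 under DMSO to 7.69, 7.71 and 7.74 under TM in control cells and from 8.80, 8.76 and 8.84 to 7.55, 7.34 and 7.64 in TUSC3 KO cells. No TM array came near a DMSO array, and the falls were 2.39-fold and 2.45-fold (log2 differences -1.26 and -1.29, SE 0.07, adjusted p = 9.44e-08 and 7.03e-08 from limma). KIF2C, which takes microtubules apart at centromeres, was at the near end, with log2 differences of -0.22 in control and -0.57 in TUSC3 KO cells. KIF20A and KIF23, motors of cytokinesis, had -0.90 and -0.60 in control and -1.09 and -0.79 in TUSC3 KO cells. KIF14 had -0.89 and -0.87, KIF20B -0.83 and -0.98, KIF15 -0.56 and -0.76, and KIF18A -0.55 and -0.80 in control and TUSC3 KO cells.

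Genes of condensin and chromosome structure had medians of -0.76 in control and -0.92 in TUSC3 KO cells, with 8 of 8 called lower in each. MKI67, the proliferation antigen Ki-67 that coats mitotic chromosomes, went from 10.34, 10.18 and 10.21 under DMSO to 9.05, 9.09 and 9.10 under TM in control cells. The KO arrays of MKI67 went from 10.34, 10.34 and 10.37 to 9.01, 8.96 and 9.05. The TM arrays of both genotypes lay below all DMSO arrays, 2.24-fold lower in control (log2 difference -1.16, SE 0.04, adjusted p = 2.09e-09 from limma) and 2.53-fold lower in TUSC3 KO cells (log2 difference -1.34, adjusted p = 9.42e-10 from limma). Under TM the KO arrays lay narrowly below the control arrays, a log2 difference of -0.07 that did not pass the test. The condensin subunits NCAPG and NCAPH had log2 differences of -0.95 and -0.93 in control and -1.13 and -1.28 in TUSC3 KO cells. SMC2 and SMC4, the ATPases shared by both condensins, had -0.84 and -0.59 in control and -1.01 and -0.82 in TUSC3 KO cells, and NCAPD2 had -0.45 and -0.68. TOP2A, the topoisomerase that untangles sister chromatids, had -0.69 and -0.83.

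CDCA5, sororin, which holds sister chromatids together, was read from the brighter of 2 features. That feature had group means of 7.19 ± 0.05 (SD, n = 3 arrays) and 6.89 ± 0.04 in control cells under DMSO and TM, and of 7.31 ± 0.02 and 6.64 ± 0.11 in TUSC3 KO cells. The dimmer feature had means of 6.53, 6.5, 6.49 and 6.41 in the same order, and with the mean of both features CDCA5 was no longer called lower in control cells under TM.

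Spindle assembly and cytokinesis genes fell furthest of the groups in control cells, with a median log2 difference of -0.98, and by -1.03 in TUSC3 KO cells, with 7 of 7 called lower in each. ANLN, anillin, the scaffold of the cleavage furrow, stood at 9.76, 9.66 and 9.74 under DMSO and 8.42, 8.46 and 8.52 under TM in control cells. The KO arrays of ANLN stood at 9.83, 9.75 and 9.83 under DMSO and 8.52, 8.48 and 8.59 under TM. Its falls of 2.38-fold and 2.41-fold (log2 differences -1.25 and -1.27, SE 0.04, adjusted p = 1.18e-09 and 1.22e-09 from limma) were nearly equal, and ANLN and ECT2 were the 2 members whose log2 difference between the genotypes under TM was positive. NUSAP1 had -1.13 and -1.05, ASPM -1.10 and -1.03, DLGAP5 -0.98 and -0.94, PRC1 -0.88 and -1.14 and TPX2 -0.61 and -0.95 in control and TUSC3 KO cells. These proteins bundle or organise spindle microtubules. ECT2, the exchange factor that activates RhoA at the furrow, had -0.66 and -0.65.

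FOXM1 and MYBL2, the transcription factors of the list, fell under TM in both genotypes. Whether they act on the other members in these cells was not tested. MYBL2 had log2 RMA values of 8.53, 8.56 and 8.64 under DMSO and 7.91, 7.91 and 7.88 under TM in control cells, and of 8.69, 8.71 and 8.75 under DMSO and 7.53, 7.51 and 7.51 under TM in TUSC3 KO cells. The 4 groups did not overlap at any point. Its fall was 1.60-fold in control (log2 difference -0.68, SE 0.03, adjusted p = 2.45e-08 from limma) and 2.29-fold in TUSC3 KO cells (log2 difference -1.2, SE 0.03, adjusted p = 4.00e-10 from limma). FOXM1 had 8.62, 8.66 and 8.62 under DMSO and 8.01, 7.99 and 8.06 under TM in control cells, and 8.76, 8.76 and 8.88 under DMSO and 7.75, 7.85 and 7.81 under TM in TUSC3 KO cells. As for MYBL2, the KO arrays were above the control arrays under DMSO and below them under TM. FOXM1 fell 1.53-fold in control (log2 difference -0.61) and 2.00-fold in TUSC3 KO cells (log2 difference -1.0).

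The TM response was then compared between the genotypes with the interaction term, the log2 difference of TM and DMSO in TUSC3 KO cells minus that in control cells. The fall was larger in TUSC3 KO cells for 17 of the 54 genes and smaller for none, where 3.73% of all genes had a called negative and 4.18% a called positive interaction. The median interaction of the 54 was -0.18, against -0.03 for all genes tested. The response was more negative in TUSC3 KO cells for 45 of the 54 genes, and for 59.6% of all genes. Without TUSC3 KO TM replicate 3, 22 of the 54 were called, and without control DMSO replicate 2, 15 were. With each array centred on its median gene, 4 of the 17 lost the call, namely CDCA3, AURKA, BUB1 and NCAPD2, and 0 members gained it.

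The 17 genes had a median log2 difference under TM of -0.47 in control and -0.84 in TUSC3 KO cells, whereas the other 37 genes had -0.74 and -0.87. The interaction is computed from the same arrays, so these medians are given as a description. CDC20 had the largest interaction, at -0.67 (SE 0.07, adjusted p = 0.000131 from limma), with a sign that differed between the genotypes. MYBL2 followed with -0.52 (SE 0.04, adjusted p = 5.35e-05 from limma). PLK1, the Polo-like kinase of mitotic entry and spindle assembly, had values of 9.80, 9.81 and 9.85 under DMSO and 9.41, 9.35 and 9.35 under TM in control cells, and of 9.91, 9.96 and 9.97 under DMSO and 8.97, 9.08 and 9.05 under TM in TUSC3 KO cells. The KO arrays lay above the control arrays under DMSO and below them under TM, with an interaction of -0.46 (SE 0.05, adjusted p = 0.000155 from limma). HJURP, the chaperone that places CENPA at centromeres, followed with -0.42 (SE 0.05, adjusted p = 0.000419 from limma).

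KIF4A, a kinesin of chromosome arms and the midzone, had 7.70, 7.65 and 7.77 under DMSO and 7.35, 7.34 and 7.45 under TM in control cells, and 7.71, 7.82 and 7.79 under DMSO and 7.0, 6.97 and 7.14 under TM in TUSC3 KO cells. The genotypes overlapped under DMSO only, and the interaction was -0.41 (SE 0.07, adjusted p = 0.00563 from limma). TPX2, which activates AURKA on the spindle, had 9.76, 9.70 and 9.76 under DMSO and 9.18, 9.15 and 9.07 under TM in control cells, and 9.74, 9.72 and 9.77 under DMSO and 8.79, 8.73 and 8.85 under TM in TUSC3 KO cells. Again the genotypes overlapped under DMSO and were apart under TM (interaction -0.35, SE 0.05, adjusted p = 0.00240 from limma). CDCA5 had an interaction of -0.36, with TUSC3 KO values of 7.29, 7.33 and 7.30 under DMSO and 6.67, 6.74 and 6.53 under TM against control values of 7.14, 7.24 and 7.2 and of 6.94, 6.85 and 6.87. Its KO arrays stood above the control arrays under DMSO and below them under TM, and the call was lost with the mean of its 2 features. The other 10 called genes were FOXM1 (-0.39), AURKB (-0.38), KIF2C (-0.35), NCAPH (-0.35), AURKA (-0.21), BUB1 (-0.31), UBE2C (-0.29), CCNB1 (-0.28), NCAPD2 (-0.24) and CDCA3 (-0.21). AURKA, CDCA3 and BUB1 lost the call when single arrays were left out, among them TUSC3 KO DMSO replicate 3, with 14 of the 17 genes called.

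For several of the genes that fell most, no difference between the genotypes was detected. The interaction was 0.05 for CDK1 (95% interval -0.22 to 0.32), -0.02 for PBK (-0.16 to 0.12), -0.04 for KIF11 (-0.25 to 0.18) and -0.02 for ANLN (-0.14 to 0.11). CCNB2 had -0.01 (-0.16 to 0.13), while its relative CCNB1 was called. By role, the called genes were 4 of 9 of mitotic entry, 3 of 7 of checkpoint and anaphase, 1 of 9 of the kinetochore, 1 of 3 passenger proteins, 2 of 9 kinesins, 3 of 8 of condensin and chromosome structure, 1 of 7 of spindle and cytokinesis, and both transcription factors. These shares were not tested against each other.

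**Figure D2:**
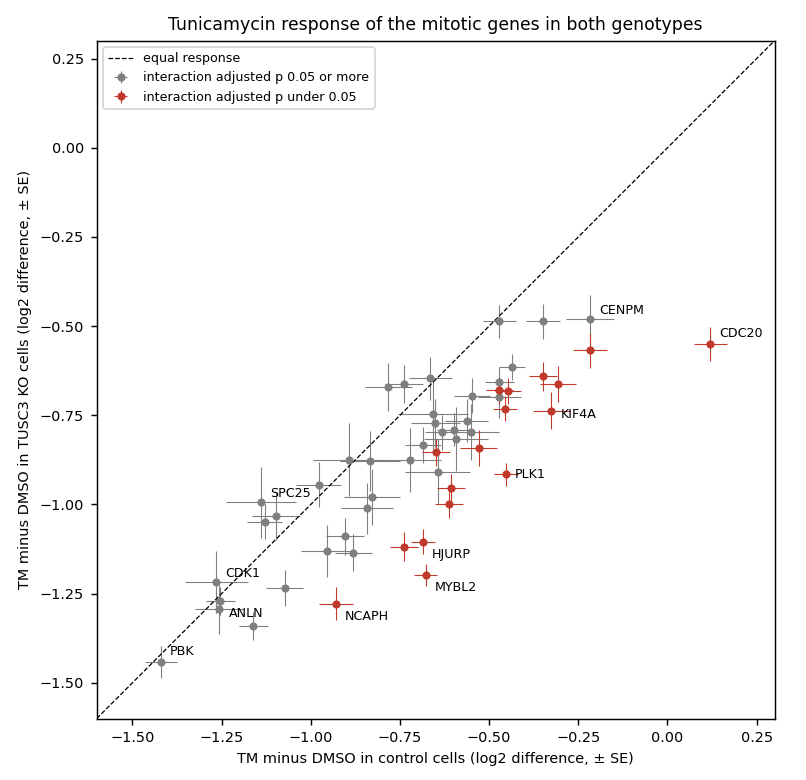
Each point is a mitotic gene, with its log2 difference of TM and DMSO in control cells (x axis) and in TUSC3 KO cells (y axis), bars being the SE from limma. Red points, the 17 genes with a called interaction, lie below the dashed line of equal response, and CDC20 is the only point to the right of 0.

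**Figure D3:**
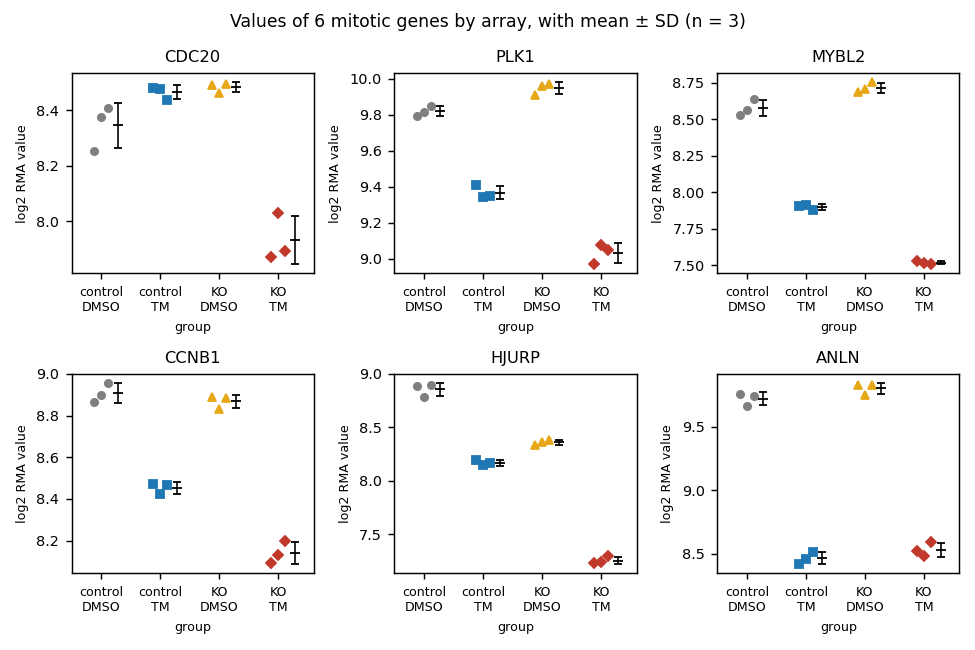
Log2 RMA values (y axis) of 6 mitotic genes on each array, with the mean and SD of each group of 3 arrays at its right. CDC20, PLK1, MYBL2, CCNB1 and HJURP reach their lowest values in TUSC3 KO cells under TM, and ANLN falls to 8.42 to 8.59 in both genotypes.

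Under TM, TUSC3 KO cells had lower values than control cells for 30 of the 54 genes and higher values for none, where 7.97% of all genes were called lower and 8.99% higher. The median log2 difference was -0.21 (1.15-fold lower), against -0.02 for all genes tested. All TUSC3 KO arrays lay below all control arrays for 34 of the 54, where 15% of all genes separated in that direction. All 17 genes of the interaction were among the 30, or 56.7% of them. Without TUSC3 KO TM replicate 3, 36 genes were called, and with each array centred on its median gene, 23 were.

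HJURP differed most, with TM arrays of 8.20, 8.14 and 8.16 in control and 7.23, 7.24 and 7.30 in TUSC3 KO cells (1.88-fold lower, log2 difference -0.91, SE 0.03, adjusted p = 1.20e-08 from limma). BUB1, the checkpoint kinase of the kinetochore, had 7.74, 7.77 and 7.71 in control and 7.0, 7.06 and 7.21 in TUSC3 KO cells (1.56-fold lower, log2 difference -0.65, SE 0.05, adjusted p = 4.61e-06 from limma). NCAPH, the kleisin subunit of condensin, had 6.8, 6.75 and 6.87 in control and 6.15, 6.27 and 6.33 in TUSC3 KO cells (1.47-fold lower, log2 difference -0.56, SE 0.05, adjusted p = 7.56e-06 from limma). The arrays of the genotypes were apart for all of these. CDC20 was 1.45-fold lower (log2 difference -0.53, adjusted p = 1.03e-05 from limma). AURKB was 1.35-fold lower (log2 difference -0.43), MYBL2 1.30-fold lower (-0.38), and TPX2, KIF4A and PLK1 were each lower by 0.34 on the log2 scale. The role groups gave 5 of 9, 5 of 7, 4 of 9, 2 of 3, 4 of 9, 5 of 8, 3 of 7 and 2 of 2 genes lower, in the order used above. Of the kinesins, KIF2C, KIF4A, KIF15 and KIF23 were called, and KIF15 and KIF23 lost the call without control TM replicate 3, where 25 genes in all were called.

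**Figure D4:**
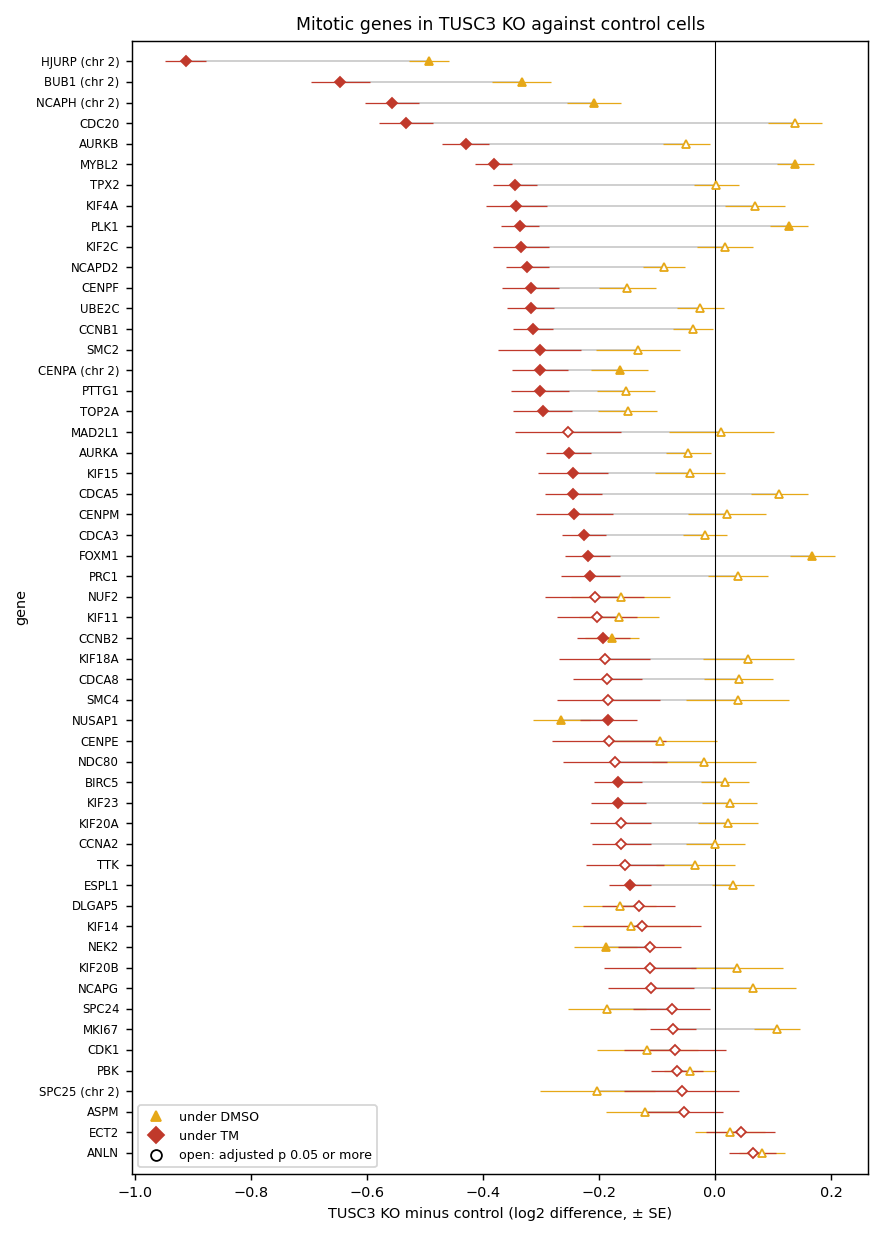
Log2 difference of TUSC3 KO and control cells (x axis, bars being the SE from limma) for each mitotic gene (y axis), under DMSO (triangles) and under TM (diamonds), with filled symbols for genes called at an adjusted p under 0.05. The TM values run from -0.91 for HJURP to 0.06 for ANLN, and FOXM1, MYBL2 and PLK1 have filled symbols on opposite sides of 0.

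Under DMSO fewer of these genes were called different between the genotypes than under TM. In TUSC3 KO cells 3 of the 54 were higher and 7 lower, where 6.58% of all genes were called higher and 6.11% lower, and the median log2 difference was -0.03, against 0.01 for all genes tested. With arrays centred on the median gene, 3 were higher and 4 lower. By role, the centromere and kinetochore genes had the lowest median, at -0.16, with 2 of 9 called lower. Their differences were negative for 8 of 9, where 9959 of all 22411 genes had a negative difference. The 2 transcription factors had the highest median, at 0.15. The role groups were not tested against each other. FOXM1 was higher by 0.17 (SE 0.04, adjusted p = 0.0140 from limma), MYBL2 by 0.14 (SE 0.03, adjusted p = 0.0132) and PLK1 by 0.13 (SE 0.03, adjusted p = 0.0259) on the log2 scale, and the same 3 genes were lower in TUSC3 KO cells under TM. Arrays did not overlap for 5 genes higher in TUSC3 KO cells and 15 lower, where 14.8% and 11.9% of all genes separated in these directions.

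HJURP had the largest difference under DMSO, from 8.89, 8.78 and 8.89 in control to 8.34, 8.36 and 8.38 in TUSC3 KO cells (1.41-fold lower, log2 difference -0.49, SE 0.03, adjusted p = 2.68e-06 from limma). BUB1 went from 8.31, 8.19 and 8.30 to 7.94, 7.92 and 7.95 (1.26-fold lower, log2 difference -0.33, SE 0.05, adjusted p = 0.00102 from limma). NUSAP1, which binds and bundles spindle microtubules, went from 8.91, 8.80 and 8.98 to 8.64, 8.61 and 8.64 (log2 difference -0.27, SE 0.05, adjusted p = 0.00340 from limma). For each of these the KO arrays lay below the control arrays. NCAPH went from 7.72, 7.70 and 7.79 to 7.51, 7.51 and 7.56 (log2 difference -0.21, adjusted p = 0.0120 from limma), and NEK2 from 6.89, 6.75 and 6.87 to 6.63, 6.65 and 6.67 (-0.19, adjusted p = 0.0402). CCNB2 (-0.18) and CENPA (-0.16) were also lower. HJURP, BUB1 and NUSAP1 kept the call with each array left out in turn, and HJURP and BUB1 under every other setting tried as well.

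The other calls under DMSO depended on single arrays. Without TUSC3 KO DMSO replicate 3, 0 genes were higher and 4 lower. Without TUSC3 KO DMSO replicate 1 or 2, 3 and 2 were higher and 4 and 3 lower, without control DMSO replicate 1, 1 was higher and 4 lower, without control DMSO replicate 2, 2 were higher and 8 lower, with PLK1 and CENPA no longer called, and without control DMSO replicate 3, 3 were higher and 3 lower. Without TUSC3 KO TM replicate 2, which enters only the shared estimate of the spread, 4 were higher and 11 lower.

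Of the 7 genes lower under DMSO, 4 lie on chromosome 2, namely HJURP (chr2:233836702-233854535), BUB1 (chr2:110637528-110678063), NCAPH (chr2:96335766-96377091) and CENPA (chr2:26786056-26794589), in GRCh38.p14. The fifth member on that chromosome, SPC25, had a log2 difference of -0.20 that did not pass the test (adjusted p = 0.269 from limma). A larger share of genes was called lower in TUSC3 KO cells on chromosome 2 than elsewhere, though most of its genes were not called lower. The median log2 difference of its genes was -0.04 under DMSO and -0.07 under TM, against 0.01 and -0.02 on other chromosomes. The 5 members on chromosome 2 had medians of -0.21 and -0.56. Of the 1402 genes tested on chromosome 2, 22.8% were called lower under DMSO and 23.5% under TM. The shares were 4.99% and 6.93% of the 21005 genes on other chromosomes. In 10 stretches along the chromosome in gene order, 13.6% to 37.1% of the genes were lower under DMSO. The part of a chromosome-wide difference in the values of HJURP, BUB1, NCAPH and CENPA was not tested.

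On the other chromosomes, 3 of 49 members were lower and 3 higher under DMSO, shares of 6.12% each against 4.99% and 6.83% of all genes there. Under TM 26 of these 49 were lower, against 6.93% of all genes on those chromosomes, and 14 of the 49 had a called interaction, against 3.72%. In response to TM itself, chromosome 2 genes were called lower at about the rate of the rest, 13.1% and 13.6% in control cells.

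**Figure D5:**
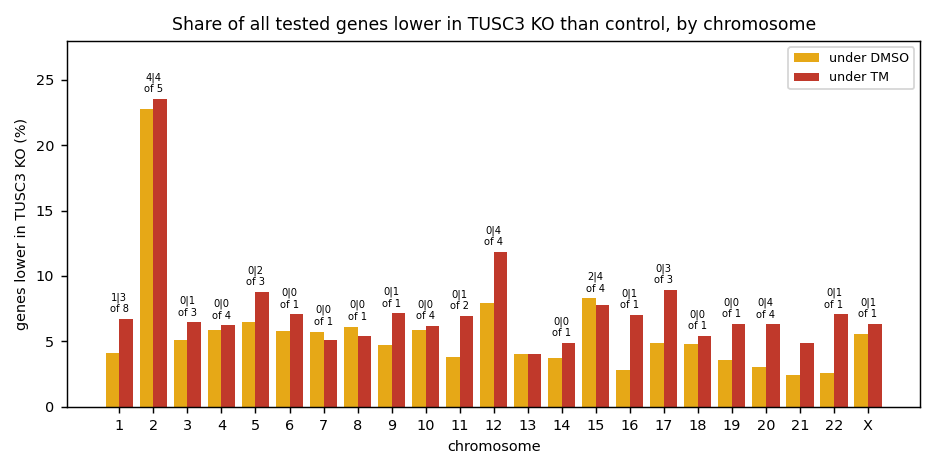
Bars give the share of all tested genes on each chromosome (x axis) that were called lower in TUSC3 KO cells (y axis, percent) under DMSO and under TM. The numbers above the bars give the members called lower under DMSO and under TM and the members on that chromosome, and chromosome 2 stands at 22.8% and 23.5%, with 4 and 4 of 5 members.

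Other genes of the cell cycle were compared in the same fit. Among all genes tested, 13.6% were called lower under TM in control and 14.9% in TUSC3 KO cells. Between the genotypes under TM, 7.97% of all genes were called lower and 8.99% higher. A negative interaction was called for 3.73% of all genes and a positive one for 4.18%. A list of 51 further G2-M and mitosis genes had 46 lower and none higher under TM in control cells and 49 lower and none higher in TUSC3 KO cells, with medians of -0.54 and -0.70. KNL1, a scaffold of the kinetochore, had the largest fall in control cells, at -1.03, and LMNB1, lamin B1 of the nuclear envelope, had the largest in TUSC3 KO cells, at -1.13. Under TM 29 of the 51 were lower in TUSC3 KO cells, led by TRIP13, a remodeller of checkpoint complexes, at -0.46, and 1 was higher, CDC25B, a phosphatase that activates CDK1, at 0.21. The interaction was called negative for 15 of the 51 and positive for none. The members of this list on chromosome 2, SGO2 and CKAP2L, were lower in TUSC3 KO cells under DMSO, by 0.29 and 0.24 on the log2 scale.

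DNA replication genes, which belong to S phase and not to mitosis, fell too. Of 20, 19 were lower under TM in control and 19 in TUSC3 KO cells, with medians of -0.84 and -1.18. The shares called lower among all genes were 13.6% and 14.9%. PCNA, the polymerase clamp, had log2 differences of -1.51 in control and -1.53 in TUSC3 KO cells. MCM10, a replication initiation factor, had -1.39 and -2.0, with an interaction of -0.61 (adjusted p = 0.000441 from limma). The interaction was called negative for 14 of the 20, and 14 were lower in the KO cells under TM. The matching shares of all genes were 3.73% and 7.97%.

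The core machinery around these genes moved less uniformly. Of all genes tested, 11.2% were called higher and 13.6% lower under TM in control cells, and 12.5% and 14.9% in TUSC3 KO cells. The counts below were not tested against these shares. Of 15 subunits and regulators of the APC/C, which mitosis uses but which are mostly expressed through the cycle, 2 were higher and 4 lower under TM in control and 2 higher and 5 lower in TUSC3 KO cells, with medians of -0.05 and -0.07. UBE2S was left out of these counts because its brightest feature is named for chromosome 17 while the gene lies on chromosome 19. CDC16, an APC/C subunit, had 0.25 and 0.24, and FBXO5, the APC/C inhibitor EMI1, had -0.51 and -0.54. Of 20 DREAM, MuvB and E2F regulators, 4 were higher and 14 lower in control and 3 higher and 10 lower in TUSC3 KO cells. E2F8, a repressor E2F that peaks in S phase, had -1.36 and -1.62, and RBL1, the pocket protein p107, had -0.72 and -1.16. RBL2, the pocket protein p130 of DREAM, had -0.33 in control and 0.07 in TUSC3 KO cells, the latter not passing the test, with an interaction of 0.39 (adjusted p = 0.00462 from limma). CDKN1A, the CDK inhibitor p21, was higher under TM by 0.25 and 0.19. Of 13 G1 cyclins, CDKs and inhibitors, 2 were higher and 6 lower in control and 1 higher and 6 lower in TUSC3 KO cells, with CCNE2, cyclin E2, at -1.03 and -0.95 and CDK6, a kinase of G1, at 0.39 and 0.18.

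Over the 12 arrays, which share 4 groups, 53 of the 54 genes correlated at 0.874 to 0.997 with the mean of the other members, and CDC20 at 0.607. Outside the list, the genes most like the mean of the 54 among 3150 genes with an SD over 0.2 were EXO1 and TYMS (r = 0.998 each), CDCA2 and NCAPD3 (0.997 each) and CLSPN (0.996). For CCNB1 the most alike gene was TRIP13 (0.996), for CDK1 it was BRIP1 (0.995), and for TOP2A it was PRPS2 (0.994). The r values are descriptions over arrays of 4 groups and carry no test.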

How the data were processed

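The authors' deposited values are log2 values that they made from the scans with RMA, a method of background correction, quantile normalization and summary over probes. Its version and annotation build were not given in the sources used here. Among 70523 features, 23781 carried 1 gene symbol, 1543 carried several and 45199 carried none in the annotation used, and 306 symbols were updated through RefSeq. Each of 22411 genes was read from its brightest feature. Values ran from 0.721 to 13.9. All 12 arrays were fitted together with limma 3.58.1 in R 4.3.3 (group means, variance trend), and 5 comparisons were adjusted by Benjamini-Hochberg over all genes. They share arrays and are not independent.

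The members and the further lists were chosen with earlier results of these data known. All members may be named. Values on every array are given for up to 4 called members with the largest rise and fall per comparison and for the largest difference per role group, and of each further list up to 3 called genes each way per comparison are named. Alternatives were quantile normalization again, arrays centred on the median gene, no trend, a fit of only the groups compared, a block for replicate number, averaging a gene's features, dropping dim genes, the methods' t-test, and leaving out each array. Tested on simulated data of 22411 genes for TM minus DMSO in control cells, the fit called 27 of 50 genes with a log2 change of 0.25, 45 of 50 with 0.5 and 50 of 50 with 1, and 8 of 22211 unchanged genes. The simulated spread was normal and independent between genes and arrays, and all changes were upward in control TM arrays. Shifts shared by many genes of an array, as seen above, were not simulated, so these counts do not cover them. The number of arrays limits the precision, and RMA values of different features are not compared. Promoter windows came from RefSeq (GRCh38.p14). Tables and figures used Python 3.11.15, numpy 2.4.6, pandas 2.3.3 and matplotlib 3.10.9.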

Additional observations from a re-analysis of the deposited data

Results flagged for a closer look

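The TM response of 17 mitotic genes differed between the genotypes by limma's interaction test at an adjusted p under 0.05, each response being more negative in TUSC3 KO cells. On the log2 scale the difference of the responses was -0.67 for CDC20, -0.52 for MYBL2, -0.463 for PLK1, -0.42 for HJURP, -0.411 for KIF4A, -0.387 for FOXM1 and -0.38 for AURKB. It was -0.355 for CDCA5, -0.351 for KIF2C, -0.348 for NCAPH, -0.347 for TPX2, -0.313 for BUB1, -0.292 for UBE2C, -0.276 for CCNB1, -0.235 for NCAPD2, -0.208 for CDCA3 and -0.206 for AURKA. BUB1, HJURP and NCAPH lie on chromosome 2.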

How the results depend on the processing

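The fall of all 54 mitotic genes under TM in TUSC3 KO cells held in all 20 alternatives run, as did 50 of the 53 falls in control cells, 15 of the 30 lower genes of TUSC3 KO cells under TM and 12 of the 17 interactions in the alternatives run for them. With the arrays centred on the median gene, 4 members were lower in TUSC3 KO cells under DMSO. After quantile normalization again, 1 member, CDC20, was higher under TM in control cells. By the methods' t-test with Benjamini-Hochberg adjustment, 16 members were lower in TUSC3 KO cells under TM and 0 higher under DMSO, and by its unadjusted p 12 were lower and 5 higher under DMSO, where 9.09% and 10.6% of all genes were. No result changed its direction. The causes were not tested.

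With each array left out in turn, members called in TUSC3 KO cells under DMSO ran from 0 to 4 higher and from 3 to 11 lower, and under TM from 25 to 36 lower. Under TM against DMSO they ran from 52 to 53 lower and 0 to 1 higher in control cells and stayed at 54 in TUSC3 KO cells, and the interaction ran from 14 to 22. With the replicate number as a block, 3 members were higher and 7 lower in TUSC3 KO cells under DMSO, 34 lower under TM, 53 and 54 fell under TM, and 18 had a called interaction. Arrays of the same number correlated at -0.0981 to 0.386 in their deviations, over 0.1 in 9 of 18 pairs, against 6 of 36 pairs of different numbers. Pairs of the arrays numbered 3 had 0.134 to 0.344. Since not every pair exceeded 0.1, the main fit did not pair the arrays by number. This cutoff cannot show that arrays of the same number are unlinked. With 3 arrays a group, differences close to the spread between arrays could not be told from it.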
